A study of Mus musculus with 12 samples.

Results

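The antibody V genes of B cells from the newborn mouse meninges, the membranes around the brain, are described here as they were joined into heavy and light chains. The members are all V genes named IGHV (heavy), IGKV (kappa light) or IGLV (lambda light) in productive receptor sequences. A productive sequence is an assembled transcript, or contig, with an open reading frame through the joint. For each cell barcode and chain, the contig with the most UMIs (tags that mark single RNA molecules) was kept. This gave 135 V genes out of 145 V gene names in any contig: 67 IGHV, 66 IGKV and 2 IGLV genes. They came from 317 of the 2282 barcodes in the B cell receptor libraries, of which 304 had a heavy chain.

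The study profiled meningeal leukocytes by droplet single-cell sequencing of the 5′ ends of transcripts, with separate enrichment of B cell receptor sequences. There were 2 naive libraries and 2 libraries from mice 6 h after hypoxia-ischemia (HI), an injury that models loss of oxygen and blood flow around birth. Each library was a pool of 12 C57Bl/6j pups, 6 males and 6 females, at postnatal day 4. The naive mice are the controls, and the labels name no sham-operated group. The work was done in 2 runs with 1 naive and 1 HI library each, but which libraries shared a run is not labelled, so no value within a run could be given. With 2 pools a group, p-values measure the spread between pools and not between mice. Cells were not used as replicates.

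An antibody heavy chain is built by joining a V, a D and a J segment, and a light chain by joining a V and a J segment. The joint forms the third complementarity determining region (CDR3), the most variable loop of the binding site. In the bone marrow and fetal liver a heavy chain is assembled first and displayed with the surrogate light chain, and a light chain follows. In early life the enzyme terminal transferase, encoded by Dntt, is little used, so that joints carry few added bases and the same joint can arise again in separate cells.

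The CDR3 sequences below are shown because some CDR3 sequences recurred between pools, in heavy chains with different V genes. All are 5′ to 3′ from the codon of the conserved cysteine to that of the closing tryptophan or phenylalanine, as assembled in the deposited contigs. In the heavy chains, capitals mark a 15-base stretch that was the most frequent one in CDR3s assigned to the D segment IGHD1-1.
IGHV5-6 or IGHV5-12 with IGHJ2, 3 cells of naive 1 and HI 2: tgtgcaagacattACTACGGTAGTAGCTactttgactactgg
IGHV1-18 or IGHV1-19 with IGHJ4, 2 cells of HI 1 and HI 2: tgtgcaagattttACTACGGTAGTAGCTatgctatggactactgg
IGHV1-12 or IGHV1-78 with IGHJ4, 2 cells of naive 1 and naive 2: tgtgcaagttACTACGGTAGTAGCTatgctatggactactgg
IGHV1-66, IGHV3-6 or IGHV5-17 with IGHJ3, 3 cells of naive 1, naive 2 and HI 2: tgtgcaactgggtttgcttactgg
The stretch ACTACGGTAGTAGCT, searched on the coding strand alone, was in 53 of the 83 distinct CDR3s assigned to IGHD1-1. Among all 304 heavy chains it was in 60, or 19.7%, and these used 36 different V genes. By library it was in 20.0% of the heavy chains of naive 1, 22.0% of naive 2, 19.4% of HI 1 and 17.2% of HI 2, so the pools differed little in it.

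Kappa CDR3s also recurred between pools. Unlike the heavy chain ones, those of IGKV1-110 with IGKJ5 or IGKJ2 below did so with the same V and J segments. Capitals mark the bases after the 23 that every 11-residue CDR3 of IGKV1-110 shared.
IGKV1-110 with IGKJ5, 4 cells of naive 1, HI 1 and HI 2: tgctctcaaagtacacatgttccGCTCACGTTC
IGKV1-110 with IGKJ2, 3 cells of naive 1, naive 2 and HI 2: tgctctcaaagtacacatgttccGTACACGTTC
IGKV1-110 with IGKJ1, 1 cell of naive 2: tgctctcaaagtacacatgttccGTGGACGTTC
IGKV1-110 with IGKJ1, 1 cell of HI 1: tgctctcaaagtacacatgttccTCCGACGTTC
The 11 cells with this gene and length had 6 distinct sequences, which differed at the joint and in the J segment. Lambda chains recurred in the same way. The IGLV1 to IGLJ1 sequence below was found in 4 cells of naive 2 and 1 cell of HI 2.
IGLV1 with IGLJ1: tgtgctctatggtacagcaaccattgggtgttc

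Among heavy chains, 7 of 277 distinct CDR3 sequences occurred in 2 or more libraries, and these held 16 cells, 5.26% of all. Each of the 7 was found with at least 2 different V genes, and the cells of different libraries that shared one differed in V gene. The first of the sequences above also repeated within HI 2, in 2 cells with the same V, J and CDR3. Among light chains, 42 of 183 distinct CDR3s occurred in 2 or more libraries and held 105 of 271 chains, or 38.7%. Naive 1 and HI 2 had 21 light CDR3s in common, 31.8% of those in naive 1 and 28.8% of those in HI 2. The 2 naive libraries had 9 in common, 13.6% of those in naive 1 and 14.3% of those in naive 2. No barcode with a productive contig was present in 2 libraries. The counts show that light chain CDR3s recurred between pools, and that heavy chain CDR3s rarely did and then with different V genes.

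The libraries differed in the number of cells with a receptor. Heavy chains were found in 80 cells of naive 1, 100 of naive 2, 31 of HI 1 and 93 of HI 2, with a median of 50, 43, 56 and 43 heavy chain UMIs per cell. HI 1 was thus the smallest library by far, and shares in it are the least precise. Confidence intervals given for shares are exact 95% binomial intervals and cover counting error alone. RNA of other cell types was present in some heavy chain barcodes. At least 10 UMIs of the macrophage gene C1qa were found in 3 of 79, 9 of 94, 1 of 28 and 11 of 83 heavy chain barcodes with gene expression data, in the order naive 1, naive 2, HI 1 and HI 2. A further barcode of HI 1 had 2531 UMIs of the neutrophil gene S100a8. All heavy chain barcodes with gene expression data had UMIs of Cd79a, a signalling subunit of the B cell receptor. Among barcodes with no productive contig and at least 10 C1qa UMIs and 1 Mrc1 UMI, Cd79a was found in 0.172% (7 of 4058), 0.277% (13 of 4695), 0.205% (7 of 3413) and 0.0383% (2 of 5218).

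A light chain accompanied the heavy chain in 256 cells, and in 48 cells no productive light chain was found. By library, cells without a light chain were 9 of 80 in naive 1 (11.2%, interval 5.28 to 20.3%), 24 of 100 in naive 2 (24.0%, interval 16.02 to 33.6%), 0 of 31 in HI 1 and 15 of 93 in HI 2 (16.1%, interval 9.32 to 25.2%). The count of 0 in HI 1 allows a share of up to 9.68%, taken as 3 cells of 31, and the exact interval reaches 11.2%. Shares allowed by a count of 0 below are likewise those of a count of 3. HI 2 lay between both naive libraries and HI 1 below them. The mean share was 17.6 ± 9.02% (SD, n = 2) in naive and 8.06 ± 11.4% (SD, n = 2) in HI libraries, a difference of -9.56 percentage points. An exact two-sided permutation test over libraries gave p = 0.667, and the smallest p it allows is 0.333. The difference was -1.50 points without HI 1, -3.19 without naive 2, -15.9 without naive 1 and -17.6 without HI 2, so its size rests on each of the 4 libraries. A further 13 cells had a light chain and no heavy chain.

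The IGHV genes lie in 1 array on chromosome 12, and were used broadly. The most used gene, IGHV5-6, was in 15 of 304 cells, or 4.93%. Among the 67 genes, 10 were found in all 4 libraries, 19 in 1 library and 13 in a single cell. The 8 genes found in 10 or more cells made up 94 cells, or 30.9%. Of these 8 genes, 4 lie near the end of the array next to the D and J segments. IGHV5-2, known as VH81X and as a gene favoured in early B cell repertoires, lies at chr12:113578504-113578990 (RefSeq annotation of GRCm38.p6), 149 kb from Ighj1. It is the third annotated V gene of the array counted from the J segments, and was in 2, 6, 1 and 4 cells of naive 1, naive 2, HI 1 and HI 2. IGHV2-2 at 158 kb was in 4, 2, 0 and 4 cells. IGHV5-4 at 168 kb was in 2, 3, 1 and 6 cells. IGHV5-6 at 196 kb was in 3, 2, 5 and 5 cells, and of the 5 cells in HI 1, 4 shared 1 heavy chain as described below.

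The other frequent genes lie farther out. IGHV3-6 at 858 kb was in 3, 0, 1 and 8 cells. IGHV10-1 at 1049 kb was in 4, 1, 2 and 4 cells, and IGHV1-19 at 1279 kb in 3, 2, 1 and 4 cells. IGHV1-39 at 1485 kb was in 3, 4, 0 and 4 cells. Use of single genes thus moved by a few cells from pool to pool. IGHV1-26 and IGHV1-53 followed with 8 cells each, and IGHV4-1, IGHV5-17 and IGHV8-12 with 7 cells each. Of the 7 IGHV8-12 cells, 6 came from naive 2.

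**Figure D1:**
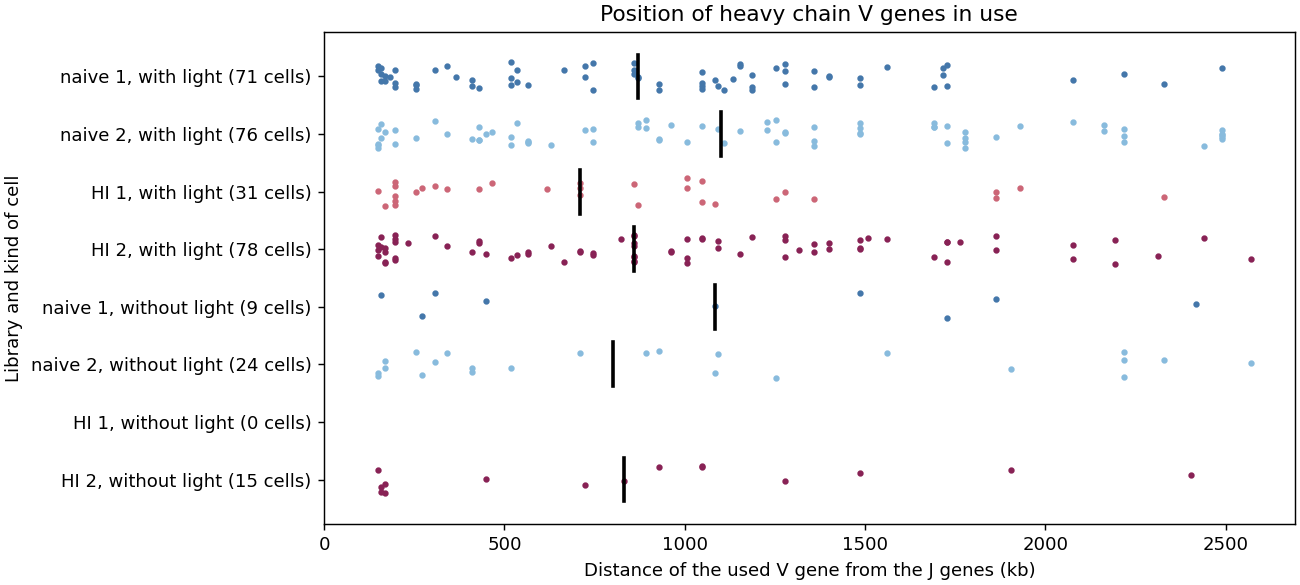
Distance in kb between the V gene used by each heavy chain cell and Ighj1, by library and kind of cell (points, with a random vertical offset; black bars, medians). In cells with a light chain the medians were 870, 1101, 711 and 858 kb in naive 1, naive 2, HI 1 and HI 2, and cells of every row reach across most of the array.

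By family, IGHV1 (J558), the largest family of the locus, led in cells with a light chain in naive 1 (26 of 71, 36.6%), naive 2 (34 of 76, 44.7%) and HI 2 (27 of 78, 34.6%). In HI 1 it was in 6 of 31 cells (19.4%). IGHV5, which with IGHV2 (Q52) holds the genes nearest to the D segments, was in 15.5%, 15.8%, 32.3% and 21.8% of these cells in naive 1, naive 2, HI 1 and HI 2. Both HI libraries thus lay above both naive libraries for IGHV5 and below them for IGHV1. This order was not particular to these families. Both HI libraries also lay above both naive ones for IGHV6 (0%, 2.63%, 6.45% and 6.41%), and below them for IGHV2, IGHV4 and IGHV13. IGHV4, IGHV6 and IGHV13 were in fewer than 10 cells with a light chain and were not in the main fit. The IGHV5 means were 15.6 ± 0.210% (SD, n = 2) in naive and 27.0 ± 7.40% (SD, n = 2) in HI libraries, and the IGHV1 means were 40.7 ± 5.74% and 27.0 ± 10.8%.

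These shifts did not pass the test. In edgeR's quasi-likelihood fit of cell counts per family, 0 of 7 families passed an adjusted p of 0.05 (0% of those tested), 0 had an unadjusted p under 0.05, and DESeq2 also called 0. The log2 difference of HI from naive was 0.66 for IGHV5 (adjusted p = 0.464 in edgeR) and -0.43 for IGHV1 (adjusted p = 0.464 in edgeR). IGHV2 was in 12.7%, 6.58%, 6.45% and 5.13% of the cells, with a log2 difference of -0.77. Of single IGHV genes, 3 were in 10 or more cells with a light chain, and 0 of 3 passed in edgeR (0%), with 0 under an unadjusted p of 0.05 and 0 called by DESeq2. The log2 difference of IGHV5-6 was 1.47 (adjusted p = 0.260 in edgeR), and it was 0.88 without HI 1 and 0.75 when each distinct heavy chain was counted once.

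**Figure D2:**
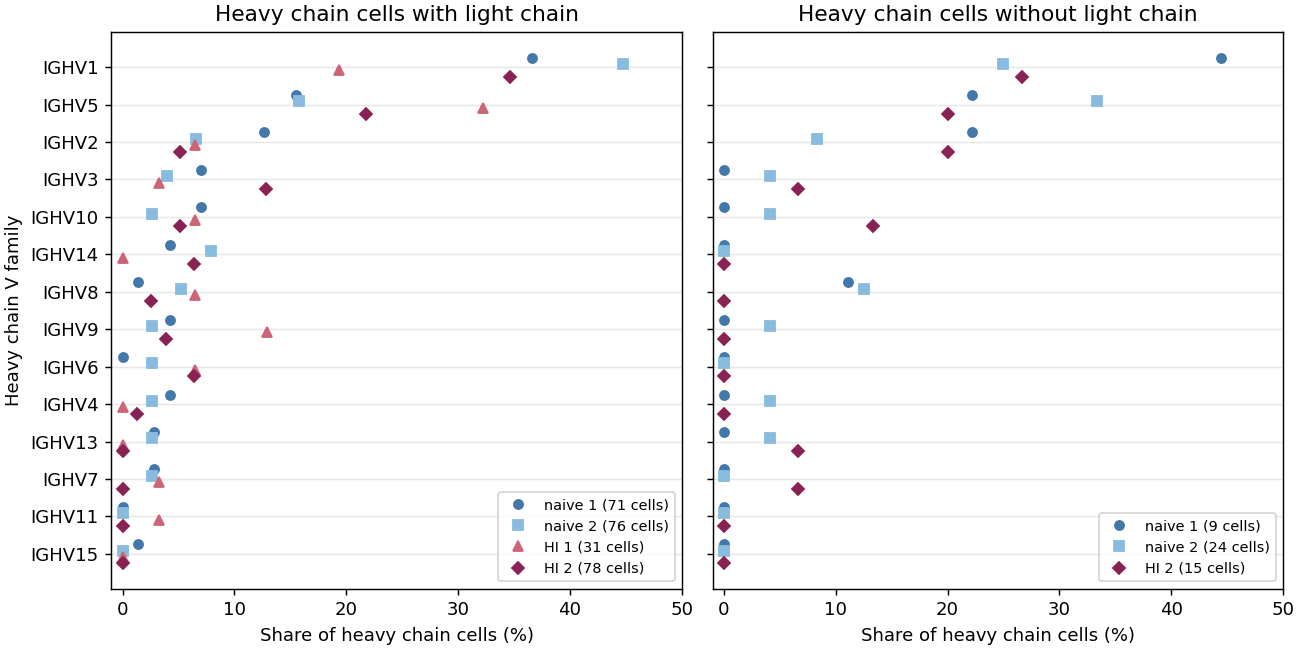
Share of heavy chain cells that used each IGHV family, with a light chain (left) and without one (right), 1 point per library. IGHV1 and IGHV5 are in the most cells in both panels when libraries are added up, and IGHV14 is at 0 in each library on the right.

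Cells without a light chain used 30 IGHV genes, of which 26 were also found in cells with a light chain. IGHV5-4 was the most frequent among them with 4 of 48 cells, followed by IGHV2-2, IGHV5-2 and IGHV8-12 with 3 cells each. Of these, 2 IGHV5-4 cells of HI 2 shared 1 heavy chain, as did 2 IGHV5-2 cells of naive 2. The families nearest to the D segments, IGHV5 and IGHV2 summed, were in 4 of 9 cells of naive 1 (44.4%), 10 of 24 of naive 2 (41.7%) and 6 of 15 of HI 2 (40.0%). In cells with a light chain from the same libraries they were in 28.2%, 22.4% and 26.9%, and in 38.7% in HI 1. The share was higher without a light chain in each of the 3 libraries that have both kinds of cell, by 16.2 percentage points on average. With each distinct heavy chain counted once, the difference was 13.8 points. The exact sign-flip test gave p = 0.25, which is the smallest that 3 libraries allow. The intervals of single libraries were wide, 22.1 to 63.4% without and 13.6 to 33.4% with a light chain in naive 2.

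Distance over the whole array did not follow the same order. The median distance from Ighj1 was 1084, 802 and 833 kb in cells without a light chain of naive 1, naive 2 and HI 2, and 870, 1101 and 858 kb in cells with one. It was thus longer without a light chain in naive 1 and shorter in naive 2 and HI 2. In edgeR's fit with the library as a block, 0 of 7 families passed (0%), 1 had an unadjusted p under 0.05 and DESeq2 called 0. IGHV5 differed by 0.58 on the log2 scale (adjusted p = 0.391 in edgeR) and IGHV2 by 1.01 (adjusted p = 0.391 in edgeR). Without naive 2 the IGHV5 difference was 0.11, so most of its size rests on that library.

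The family with the unadjusted p under 0.05 was IGHV14. It was in 3 of 71, 6 of 76 and 5 of 78 cells with a light chain of naive 1, naive 2 and HI 2, and in 0 of 48 cells without one. With 48 cells, 0 allows a share of up to 6.25%, which is above the 5.47% found over all cells with a light chain. The unadjusted p was 0.0163 and the adjusted p 0.114 in edgeR. Among single genes, 0 of 6 tested in edgeR passed (0%), 0 had an unadjusted p under 0.05 and DESeq2 called 0. IGHV3-6 (12 cells with a light chain) and IGHV5-6 (15 cells) were in no cell without one.

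Among the J segments of the heavy chain, IGHJ2 and IGHJ4 were at like shares in the 4 pools. IGHJ2, the most used J segment, was in 35.2%, 36.8%, 35.5% and 34.6% of cells with a light chain in naive 1, naive 2, HI 1 and HI 2. IGHJ4 was in 25.4%, 25%, 22.6% and 23.1%. IGHJ3 was in 21.1%, 21.1%, 32.3% and 21.8%, and IGHJ1 in 18.3%, 17.1%, 9.68% and 20.5%, so HI 1 stood apart for both. The 4 cells of HI 1 with 1 shared heavy chain all use IGHJ3. Without a light chain, IGHJ2 was in 21 of 48 cells (43.8%), IGHJ1 in 12 (25%), IGHJ4 in 10 (20.8%) and IGHJ3 in 5 (10.4%).

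IGHD1-1 was the D segment named most often. In cells with a light chain it was assigned in 25.4%, 35.5%, 22.6% and 20.5% of naive 1, naive 2, HI 1 and HI 2. In cells without one it was assigned in 44.4% (4 of 9) of naive 1, 45.8% (11 of 24) of naive 2 and 46.7% (7 of 15) of HI 2. The share was higher without a light chain in each of these 3 libraries, and the ranges over libraries did not overlap. The intervals did overlap within each library, at 25.6 to 67.2% without and 24.9 to 47.3% with a light chain in naive 2. Ranges over libraries also did not overlap for IGHD2-4. It was assigned only in cells with a light chain, at 8.45%, 7.89%, 3.23% and 5.13%. The mean difference for IGHD1-1 was 18.5 percentage points, with p = 0.25 in the exact sign-flip test, again the smallest possible. The 15-base stretch shown above was chosen from CDR3s assigned to IGHD1-1, so its order restates these shares and is no separate support. It was in 15 of 48 cells (31.2%) without and 45 of 256 (17.6%) with a light chain, the latter with HI 1 included.

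The constant region was IGHM, that of IgM, in 299 of the 304 heavy chains. IGHD, that of IgD, was read in 4 cells, 2 of naive 1 and 1 each of HI 1 and HI 2, all with a light chain. In 1 cell of naive 2 no constant region was assigned. Constant regions of IgG, IgA and IgE, which mark switched B cells, were in 0 productive contigs, which allows up to 3.75%, 3%, 9.68% and 3.23% of heavy chain cells of naive 1, naive 2, HI 1 and HI 2. Among contigs that are not productive, IGHE was named in 61, IGHG2B in 3 and IGHA in 2. None of the IGHE contigs had a V gene: 57 were assigned the T cell receptor segment TRAJ17, and 4 had no J segment. They were in 58 of the 1965 barcodes with no productive contig.

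Heavy chain CDR3s averaged 11.6, 11.6, 11.2 and 11.3 residues in cells with a light chain of naive 1, naive 2, HI 1 and HI 2, with both conserved end residues counted. The mean was 11.6 ± 0.00955 (SD of library means, n = 2) in naive and 11.2 ± 0.0854 (SD of library means, n = 2) in HI libraries. Both HI libraries lay below both naive ones, by 0.377 residues, with p = 0.333 in the exact two-sided permutation test, the smallest that 2 against 2 libraries allow. Within a library the SD over cells was 2.17 to 2.62 residues. HI 1 had 11 of 31 cells (35.5%) at 9 residues or fewer, against 21.1%, 27.6% and 20.5% in naive 1, naive 2 and HI 2. Of these 11 cells, 4 had 1 shared heavy chain with a CDR3 of 9 residues. With each distinct heavy chain counted once, HI 1 had 8 of 27 (29.6%) and naive 2 had 21 of 74 (28.4%), and the difference between HI and naive libraries was -0.250 residues.

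Without a light chain the mean CDR3 length was 11.2 residues in naive 1 (9 cells), 12.5 in naive 2 (24 cells) and 12.6 in HI 2 (15 cells). It was thus shorter than with a light chain in naive 1 and longer in naive 2 and HI 2. The mean difference was 0.614 residues with p = 0.5 in the exact sign-flip test, whose smallest value is 0.25. It was 0.262 residues without HI 2 and 1.11 without naive 1. CDR3s of 14 or more residues made up 33.3%, 45.8% and 46.7% without and 26.8%, 26.3% and 16.7% with a light chain in naive 1, naive 2 and HI 2. Length went with the segments used. Chains assigned to IGHD1-1 averaged 13.8 residues without (22 cells) and 13.7 with a light chain (68 cells), and all others 11 (26 cells) and 10.6 (188 cells). By J segment, chains with IGHJ1 averaged 13.1 residues and chains with IGHJ3 averaged 9.74 in cells with a light chain.

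**Figure D3:**
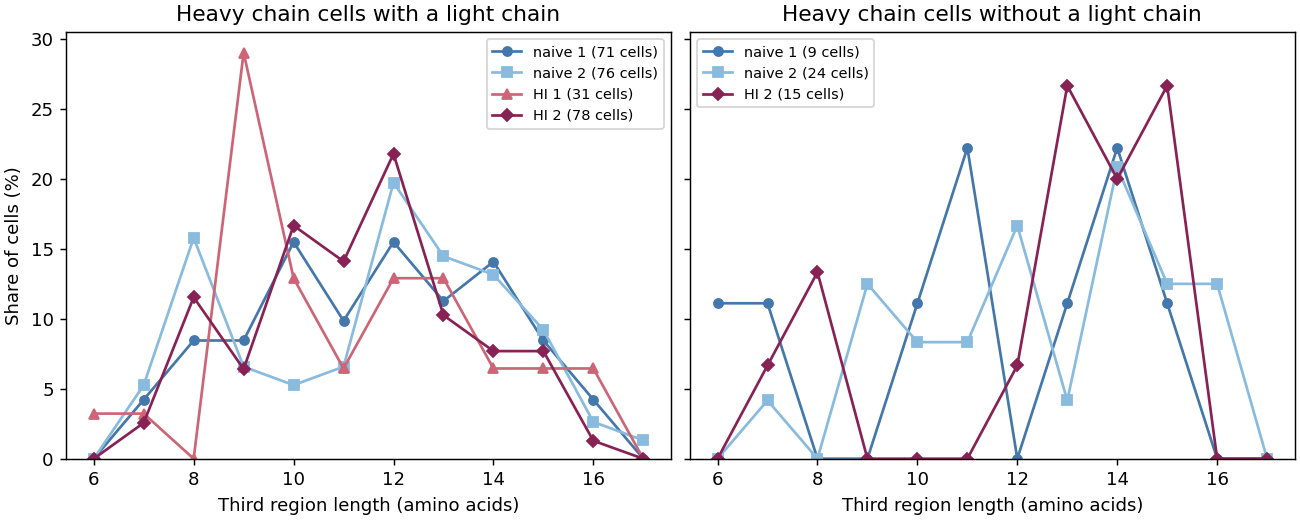
Share of heavy chain cells at each CDR3 length in amino acids, with a light chain (left) and without one (right), 1 line per library. Lengths spread from 6 to 17 residues, HI 1 peaks at 9, and the right panel rests on 9 to 24 cells a library.

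Light chains were far more uniform in length: 217 of the 258 in cells with a heavy chain (84.1%) had a CDR3 of 11 residues. By library this share was 83.3%, 87.0%, 90.3% and 79.5% in naive 1, naive 2, HI 1 and HI 2. The mean over all was 10.96 residues with an SD over chains of 0.439, against 2.43 for the heavy chains of the same cells.

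Of these 258 light chains, 243 were kappa and 15 lambda. Lambda chains were 7 of 72 in naive 1 (9.72%), 4 of 77 in naive 2 (5.19%), 0 of 31 in HI 1 (up to 9.68% allowed) and 4 of 78 in HI 2 (5.13%). The group means were 7.46 ± 3.20% (SD, n = 2) in naive and 2.56 ± 3.63% (SD, n = 2) in HI libraries, and with 31 chains in HI 1 a difference was not detectable at this depth. IGLV1 at chr16:19085017-19085460 (GRCm38.p6) supplied 12 of the 15 and IGLV2 the other 3. Their J segments were IGLJ1 in 11 chains, IGLJ2 in 2 and IGLJ3 in 2, and their constant regions IGLC1 in 11, IGLC3 in 3 and IGLC2 in 1.

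Kappa V use was as broad as that of the heavy chain. The family IGKV4 was in 41 chains (15.9%), IGKV1 in 35 (13.6%), IGKV6 in 28 (10.9%) and IGKV8 in 27 (10.5%). IGKV1 was in 15.3%, 19.5%, 19.4% and 3.85% of the chains of naive 1, naive 2, HI 1 and HI 2, and IGKV8 in 8.33%, 7.79%, 6.45% and 16.7%, so HI 2 lay outside the other libraries in both, which was not tested. IGKV1-110 led the single genes with 4, 5, 4 and 2 chains, and IGKV10-96 followed with 2, 5, 0 and 7. IGKV19-93 was in 3, 2, 1 and 6 chains, IGKV1-117 in 6, 3, 1 and 1, and IGKV14-111 in 3, 4, 0 and 3. IGKV12-46, IGKV8-30 and IGKV9-120 were in 9 chains each, and IGKV1-135 in 7, of which 6 were from naive 2.

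In edgeR's fit of light V genes, HI against naive, 0 of 6 passed (0%), 0 had an unadjusted p under 0.05 and DESeq2 called 0. The log2 difference was 0.88 for IGKV19-93 (adjusted p = 0.744 in edgeR), -1.61 for IGKV1-117 (adjusted p = 0.522 in edgeR) and -1.78 for IGLV1 (adjusted p = 0.522 in edgeR). Among kappa J segments, IGKJ1 was in 84 chains (32.6%), IGKJ5 in 61 (23.6%), IGKJ2 in 59 (22.9%) and IGKJ4 in 39 (15.1%). IGKJ1 was in 29.2%, 35.1%, 38.7% and 30.8% of the chains of naive 1, naive 2, HI 1 and HI 2. The kappa V genes in use lay a median of 1915, 1860, 1284 and 1428 kb from the kappa J segments on chromosome 6, so both HI medians were shorter, and this difference was not tested.

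**Figure D4:**
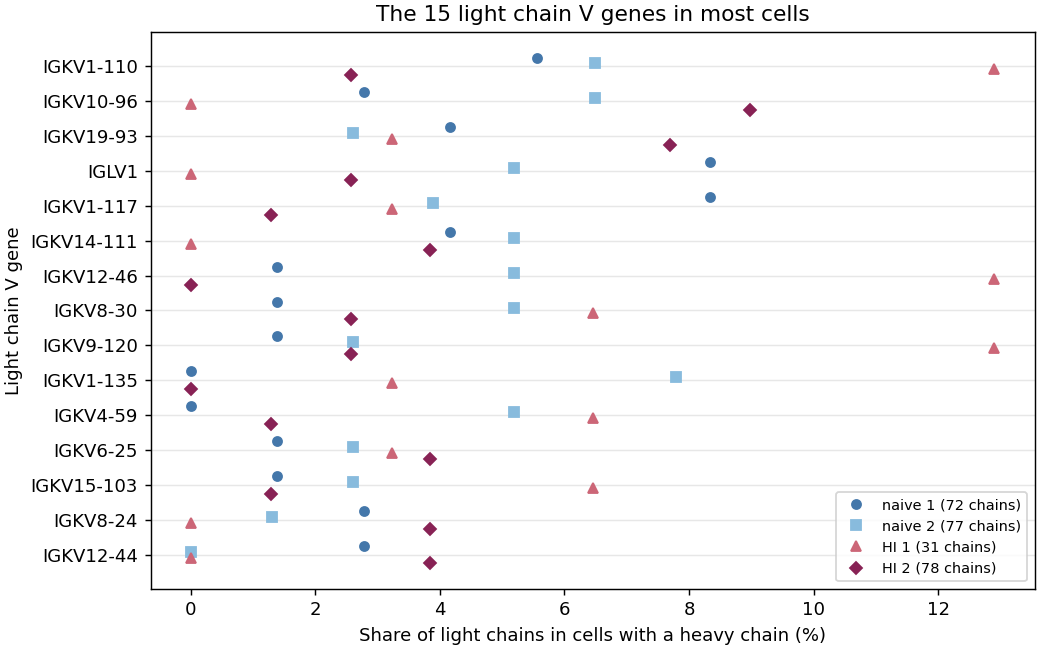
Share of light chains in cells with a heavy chain that used each of the 15 most used light chain V genes, 1 point per library. The order of the libraries changes from gene to gene, and HI 1, with 31 chains, has both the highest shares (12.9%) and several at 0.

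Few pairs of heavy and light V genes repeated. The 256 cells with both chains held 235 distinct pairs of V genes, and 8 pairs occurred in 2 or more libraries. IGHV1-81 with IGKV12-46 was the most frequent of these 8, in 1 cell of naive 1 and 2 of naive 2. Genes associated with B-1 cells, an early-arising B cell class with restricted receptors, were rare. IGHV11-2 was in 1 cell, of HI 1, where it was paired with IGKV1-117 and not with its usual partner IGKV14-126. IGHV12-3 was in 0 cells, IGKV4-91 in 3, IGKV14-126 in 2 and IGHV7-1 (T15) in 2. RefSeq lists IGHV7-1, IGHV7-3 and IGKV14-126 as pseudogenes in GRCm38.p6, and together they were in 8 cells.

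Some cells of a library shared a whole heavy chain, with the same V, J and CDR3 bases. There were 12 such groups with 27 cells: 4 groups in naive 2, 2 in HI 1, 6 in HI 2 and 0 in naive 1. In 5 groups the light chain was also the same, in 2 it differed, in 3 it was found in some cells and in 2 in none. The largest group was 4 cells of HI 1, shown here with both of its chains because it makes up 4 of the 31 heavy chain cells of that library.
IGHV5-6 with IGHJ3: tgtgcaagaacctggtttgcttactgg
IGKV9-120 with IGKJ1: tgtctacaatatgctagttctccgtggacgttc
The 4 cells had 47 to 195 heavy chain UMIs each. In HI 2, 2 cells with 1 IGHV5-2 heavy chain carried different light chains, IGKV1-117 with IGKJ4 in 1 and IGKV6-25 with IGKJ1 in the other.
IGHV5-2 with IGHJ1: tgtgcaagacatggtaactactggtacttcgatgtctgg
In 3 cells of naive 2 with 1 IGHV8-12 heavy chain, the heavy chain UMIs were 1, 6 and 114, and the cell with 1 UMI had no light chain. Whether such low counts come from free RNA of another cell was not tested. Leaving out contigs with fewer than 2 UMIs changed the difference in the share without a light chain from -9.56 to -9.18 points. More than 1 light chain was found in 16 barcodes, 14 with a pair of kappa chains and 2 with a kappa and a lambda chain, and 5 barcodes had a pair of heavy chains.

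The assigned V genes could be checked against the gene expression libraries of the same cells. The V gene with the most UMIs there was the one in the contig for 237 of 239 heavy chains with a light chain, 43 of 45 without one, and 231 of 241 light chains. The heavy chains of cells without a light chain were thus read in both kinds of library. Of all heavy V gene UMIs there, the contig's gene held 96.0% in cells with and 84.9% in cells without a light chain. Without one, the share was 75.1%, 83.1% and 97.6% in naive 1, naive 2 and HI 2. For light V gene UMIs it was 84.8%.

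The contigs without a V gene differed between both kinds of cell. A contig with the kappa constant region and no V gene was found in 8 of 9, 16 of 24 and 14 of 15 cells without a light chain of naive 1, naive 2 and HI 2 (88.9%, 66.7% and 93.3%). In cells with a light chain it was found in 4.23%, 5.26%, 3.23% and 7.69% of naive 1, naive 2, HI 1 and HI 2. A lambda contig with J and constant region and no V gene was the reverse, found in 0 of 9, 2 of 24 and 1 of 15 cells without a light chain. With one, it was found in 78.9%, 76.3%, 90.3% and 76.9%. The ranges over libraries did not overlap for either contig. The mean difference was 77.2 percentage points for kappa and -72.4 for lambda, each with p = 0.25 in the exact sign-flip test, the smallest possible with 3 libraries. Both kinds of cell were defined by light chain contigs of the same receptor libraries. The kappa and lambda contigs without a V gene are thus not independent of the split, and the comparison was added after seeing the data. In barcodes with no productive contig, taken as the background, the shares were 0.204% (4 of 1965) for kappa and 0.458% (9 of 1965) for lambda. IGHM contigs without a V gene were in 95.5% (1877 of 1965) of these barcodes. They were in 22.2%, 45.8% and 60.0% of cells without a light chain of naive 1, naive 2 and HI 2. With one, they were in 14.1%, 15.8%, 6.45% and 14.1% of naive 1, naive 2, HI 1 and HI 2. These ranges also did not overlap, and the difference was not tested. Cells whose productive light chain was kappa alone had the lambda contig in 198 of 241 cases (82.2%). Cells with a productive lambda chain had it in 4 of 15 (26.7%, interval 7.79 to 55.1%), a difference that was not tested.

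**Figure D5:**
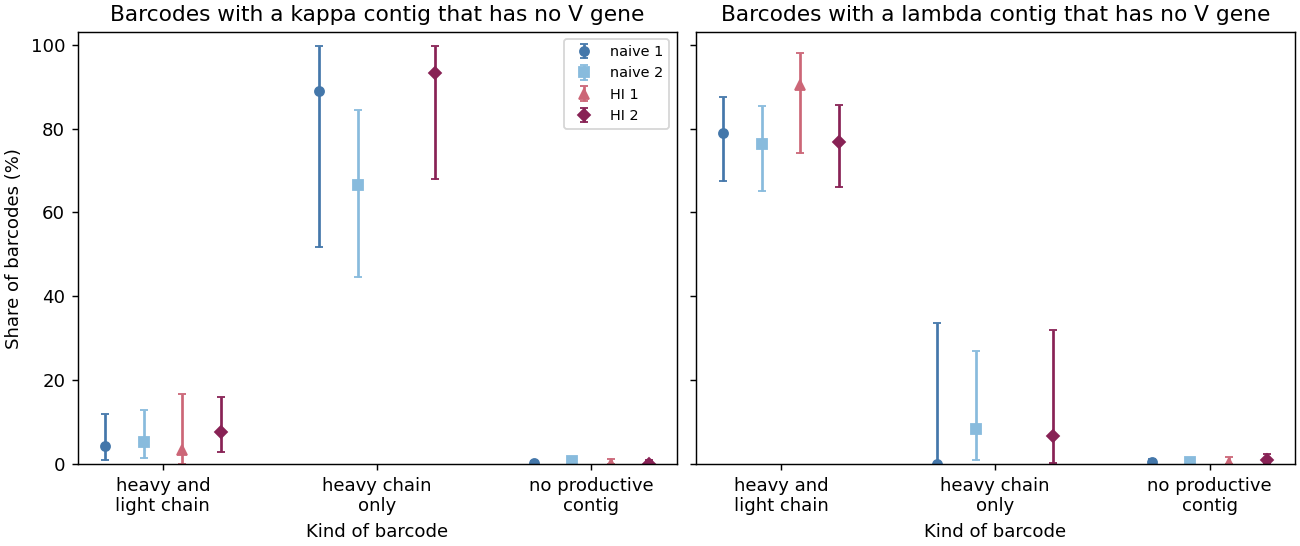
Share of barcodes with a kappa (left) or lambda (right) contig that has no V gene, by kind of barcode, 1 point per library with its exact 95% binomial interval. Kappa contigs of this kind were frequent in cells with a heavy chain alone and lambda contigs in cells with both chains, and barcodes with no productive contig are near 0 in both panels.

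The RNA of both kinds of heavy chain cell was compared in the gene expression libraries, as UMIs summed per library and kind and fitted with the library as a block. HI 1 has no cell without a light chain and is not in this fit. Of 6755 genes tested in edgeR, 922 passed an adjusted p of 0.05 (13.6%), 413 higher (6.11%) and 509 lower (7.54%) in cells without a light chain. DESeq2 called 470, of which 469 were among the 922, and edgeR called 510 without naive 1. The median log2 difference of all genes tested was -0.02. The split is by light chain contigs, so the light chain genes themselves are not independent of it. Median UMIs per cell were 16989, 13814.5 and 15220 without and 7883.5, 10045.5 and 10338 with a light chain in naive 1, naive 2 and HI 2, and levels below are in CPM (UMIs of a gene scaled to equal total UMIs of each sum).

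Genes of pro-B and pre-B cells were higher without a light chain: 7 of 10 listed genes could be tested and 7 rose, with a median log2 difference of 5.34. Igll1, which encodes a part of the surrogate light chain, was at 977, 600.5 and 175 CPM without a light chain in naive 1, naive 2 and HI 2, and at 0 UMIs in all cells with one. With UMIs pooled over the 3 libraries it was at least 462-fold higher, taken against 3 UMIs over the cells with a light chain. Vpreb1, the other part, had 260 against 2 pooled UMIs, a ratio of 407 (interval 111 to 3377, counting error alone). By library it was at 701, 323 and 77.3 CPM without and 1.28, 0 and 1.13 CPM with a light chain. Pooled, Vpreb2 was at least 58.4-fold higher, but it was at 87.6, 98.9 and 4.07 CPM without a light chain, so HI 2 was lowest for both. Ratios and fold bounds below are pooled likewise. Vpreb3 rose by 2.28 on the log2 scale (SE 0.257, adjusted p = 2.8e-04 in edgeR). Il7r, the receptor for the growth factor interleukin 7, was at 303, 186 and 309 CPM without and 19.2, 10.0 and 5.66 CPM with a light chain. Rag2, one of the pair of recombinase genes, had 40 against 3 UMIs, and Myb rose by 2.71 (adjusted p = 2.2e-04 in edgeR).

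The remaining genes of that list were too low to test. Rag1 was at 47.2, 4.71 and 16.3 CPM without and at 6.40, 0 and 1.13 CPM with a light chain. Dntt was at 0 UMIs in every heavy chain cell of both kinds. In all barcodes of the 4 gene expression libraries it had 21 UMIs, in 3 barcodes of naive 2 with no productive contig. Igll1 had 0 UMIs in all 4213 barcodes of HI 1, the library with no heavy chain cell that lacks a light chain, and 372, 565 and 213 UMIs in naive 1, naive 2 and HI 2.

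Genes of cell division rose together, 4 of 4 tested. Mki67 was at 303, 273 and 468 CPM without and 177, 151 and 95.1 CPM with a light chain, and Top2a rose by 1.40 on the log2 scale (adjusted p = 0.00465 in edgeR). Ccnb2 and Cdk1, which drive entry into mitosis, rose by 1.73 and 1.51. The call for Cdk1 was lost without naive 1 (adjusted p = 0.0776 in edgeR).

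Genes of light chains and of naive B cells were lower, with 10 of 11 listed genes tested and 10 fallen, at a median of -4.47. Igkc, Iglc1, Iglc2 and Iglc3 are among these 10, so the count and the median are in part set by the split itself. The other tested genes, Ighd, Ighm, Fcer2a, H2-Aa, H2-Ab1 and Cd83, also fell. Iglc2 was at 762, 378 and 385 CPM with and 0 without a light chain, at least 136-fold lower. Iglc1 fell by 6.23 and Iglc3 fell by 6.04. Igkc was at 756, 717 and 671 CPM with and 202, 379 and 549 CPM without a light chain, a log2 difference of -0.98 (adjusted p = 0.0361 in edgeR). That call was lost without naive 1 (adjusted p = 0.205 in edgeR). Ighm, the constant region of nearly all heavy chains here, was at 913, 806 and 848 CPM with and 377, 400.3 and 476 CPM without one. Ighd fell by 2.73, and H2-Aa, a class II antigen presentation gene, fell by 3.49. Fcer2a (CD23), a marker of mature B cells, was at 0 without a light chain and at least 12.8-fold lower.

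Of the general B lineage genes listed, 4 fell and 1 rose. Cd74, the class II chaperone, was at 9028, 7675 and 7428 CPM with and 344, 169.6 and 248 CPM without a light chain. Ms4a1 (CD20) fell by 4.47, Cd79a fell by 0.87 and Cd79b fell by 0.87 on the log2 scale, and the Cd79b call was lost without naive 1 (adjusted p = 0.0713 in edgeR). Ebf1, an early B lineage factor, rose by 1.43. Among B-1 associated genes, 4 of 5 were lower, against 7.54% of all genes tested. The remaining one, Spn, differed by 0.38 in the other direction and did not pass (adjusted p = 0.622 in edgeR). Zbtb32 was at least 10.97-fold lower, Cd5 had 3 against 89 UMIs, Plscr1 fell by 3.27 and Bhlhe41 fell by 1.97. The Bhlhe41 call was lost without naive 1 (adjusted p = 0.0892) and without naive 2 (adjusted p = 0.191) in edgeR.

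Macrophage genes were in the same sums. In the order naive 1, naive 2 and HI 2, the 7 listed genes added up to 744, 1408 and 2529 CPM with and 20.2, 1757 and 1952 CPM without a light chain, and 5 of 7 were at 0 without a light chain in naive 1. Of the 7, 0 passed in edgeR and 1, P2ry12, had an unadjusted p under 0.05, and DESeq2 called 0. C1qa differed by -0.74 (adjusted p = 0.329 in edgeR). Without HI 2 its difference was -0.80 (adjusted p = 0.0155 in edgeR), and without naive 2 it was -1.35 (adjusted p = 0.0122 in edgeR). Without the barcodes that held at least 10 C1qa or S100a8 UMIs, 1065 genes passed in place of 922. Jchain and Prdm1, markers of antibody-secreting cells, were too low to test, and Xbp1 did not pass. The T cell gene Cd3e was at 0 in all these sums. Trac, the other T cell gene listed, was too low to test, with 20 pooled UMIs with and 1 without a light chain.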

How the data were processed

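The analysis used the receptor contigs and gene expression counts of 4 libraries (2 naive, 2 HI). The submitters' processing notes name Cell Ranger 2.2.0, Seurat and the build mm10 (GRCm38), and the exact steps are not given in the sources used here. The deposited matrices hold UMI counts, and the deposited contig tables hold counts of UMIs and reads per contig. Counts of cells per V gene or family (at least 10 cells in the groups compared) were fitted with edgeR 4.0.16 (quasi-likelihood, cells with a light chain, Benjamini-Hochberg), with all cells (or light chains) of that kind in the library as total. RNA sums of both kinds of cell were fitted likewise after TMM scaling, with the library as a block, and DESeq2 1.42.0 was the alternative. Shares and lengths were compared by exact tests over libraries. The RNA fit and the fits of V gene and family counts were tested on simulated data. V counts were simulated with counting error alone, and RNA counts without differences between libraries. These runs thus do not show how the fits behave at the spread of these pools. All 135 V names matched RefSeq (GRCm38.p6). The text names the most used V genes, all J and constant regions, fixed B-1 genes and marker list genes. The members and lists were chosen with earlier results of these data known. The shares of IGHV5 with IGHV2, of IGHD1-1 and of contigs without a V gene, and leaving out barcodes with C1qa or S100a8, were added after seeing the data. T cell receptor libraries were not used.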

Additional observations from a re-analysis of the deposited data

How the results depend on the processing

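In every setting tried, 0 heavy or light V genes or families passed the adjusted p of 0.05, with 2 to 67 features tested per fit. No fit was possible for heavy V genes, HI against naive, without naive 1 or HI 2, nor for heavy V genes by light chain without naive 1, naive 2 or HI 2, since too few genes had 10 cells. The numbering of libraries in the labels is not tied to a run. With the replicate number as a block, HI against naive again gave 0 calls in heavy V genes, heavy families and light V genes, and without the block the RNA comparison called 926 genes. Leaving out 1 library gave 510 to 1115 RNA calls, and DESeq2 gave 470. The difference in the share without a light chain ranged from -17.6 to -1.50 points over libraries left out. IGHV5-6 in HI against naive was 0.75 (log2) with each distinct heavy chain counted once, 0.73 with TMM scaling, and 0.88 to 1.22 over the libraries whose removal left a fit. IGHV5 without against with a light chain ranged from 0.11 to 0.91 over libraries left out, and the difference in CDR3 length between the same kinds of cell from 0.262 to 1.11 residues. Over 29 V gene and family differences and 372 alternatives, the sign turned in 14, and none of the 29 had passed. The cause was not tested.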
